A study of Hynobius leechii and Hynobius unisacculus and Hynobius quelpaertensis with 23 samples.

Results

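Intestine was set against skin within single animals of 2 salamander species, since these were the animals from which both tissues were sequenced. These were an adult Hynobius unisacculus, labelled UN, and an adult Hynobius leechii of the lineage labelled HC1. The genes compared were all those whose symbol was present in the count tables of both animals. They numbered 6984, out of 8725 named symbols in the UN table, 10077 in the HC1 table and 13514 in all 6 tables of the series. Of these, 2287 had at least 10 CPM (counts of a gene per 1000000 counts of its library) in the higher of the tissues in both animals. A further 1445 did so in the UN table only, 1465 in the HC1 table only, and 1787 in neither.

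Gut and amphibian skin are both epithelia that face the outside. The intestinal lining is a sheet of absorptive cells with mucus-secreting goblet cells and scattered hormone-secreting cells, wrapped in smooth muscle. Amphibian skin is a layered epithelium that forms a thin cornified surface, holds mucous and granular glands that open onto that surface, and takes up or loses water and salts under hormonal control. Gene roles given below are those known in mammals.

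The series holds 23 libraries of polyadenylated RNA from liver, intestine and skin of untreated, wild-caught adult Hynobius in Korea. Each animal here gave 1 intestine library and 1 skin library, and the HC1 and UN tables also hold 5 livers, 2 from UN and 3 from HC1. Intestine and skin therefore have 1 sample each in a table, and species and individual cannot be told apart. The values are raw read counts, and neither sequences nor transcript lengths were used, so levels are not compared between genes per length.

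Total counts were 2995215 in the UN intestine, 2216003 in the HC1 intestine, 3445720 in the UN skin and 4628175 in the HC1 skin. The 10 most abundant genes took 51.6% and 29.6% of the counts in the UN and HC1 intestines, against 26.3% and 27.5% in the UN and HC1 skins. Of the counts from 1 to 19, only 17.4% and 14.1% were odd numbers in the UN and HC1 intestines, and 13.5% and 11.9% in the UN and HC1 skins. Single counts therefore need not be separate reads, and all intervals and floors below cover counting error only and may be too narrow. Some symbols were at or near 0 in every library of 1 table. There were 108 symbols with at least 100 CPM in all 4 UN libraries and under 10 CPM in all 5 HC1 libraries, and 127 the other way round. The cause was not tested.

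The labelled tissues were checked against their markers. The goblet cell mucin MUC2 was at 11066 CPM in the UN intestine and 12091 CPM in the HC1 intestine, against 156 CPM in the UN skin and 8.86 CPM in the HC1 skin. The epidermal transglutaminase TGM1, which crosslinks the cornified envelope, was at 26.04 and 32.9 CPM in the UN and HC1 intestines, against 717 and 716 CPM in the UN and HC1 skins. Both markers stood apart by tissue in both animals, and both are among the genes named by their ratios below. The gut markers FCGBP, CUBN and CDH17, given below, differed by less than 2-fold between the tissues in UN. MUC2 was also at 5639 CPM in the skin of another H. leechii lineage, HC3. The basal keratin KRT5 was at 2.003 and 8.12 CPM in the UN and HC1 intestines, and at 3.48 CPM in the UN skin against 2949 CPM in the HC1 skin. The row of this defining skin marker was thus nearly empty in the UN skin. The keratin KRT6C went the other way, at 13888 CPM in the UN skin and 34.4 CPM in the HC1 skin. Whether these keratin rows stand for the same genes in both tables was not tested.

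Genes were said to agree when intestine and skin differed by at least 2-fold in the same direction in both animals. Of the 2287 genes with at least 10 CPM in both, 70 were higher in both intestines, which is 3.06%, and 327 were higher in both skins, which is 14.3%. Together they made 17.4%. Opposite directions were found for 94 genes, 4.11%. Taken alone, the UN animal had 115 genes at least 2-fold higher in intestine (5.03%) and 837 higher in skin (36.6%), and the HC1 animal had 335 (14.6%) and 442 (19.3%). The split depended on the scaling. The median log2 ratio of intestine to skin was -0.73 in UN and -0.24 in HC1 on whole totals, so that most genes lay below 0 in each animal, further in UN. With TMM factors (edgeR's trimmed mean scaling) these medians were -0.04 and 0.03, and 124 genes were higher in both intestines and 169 in both skins.

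**Figure D1:**
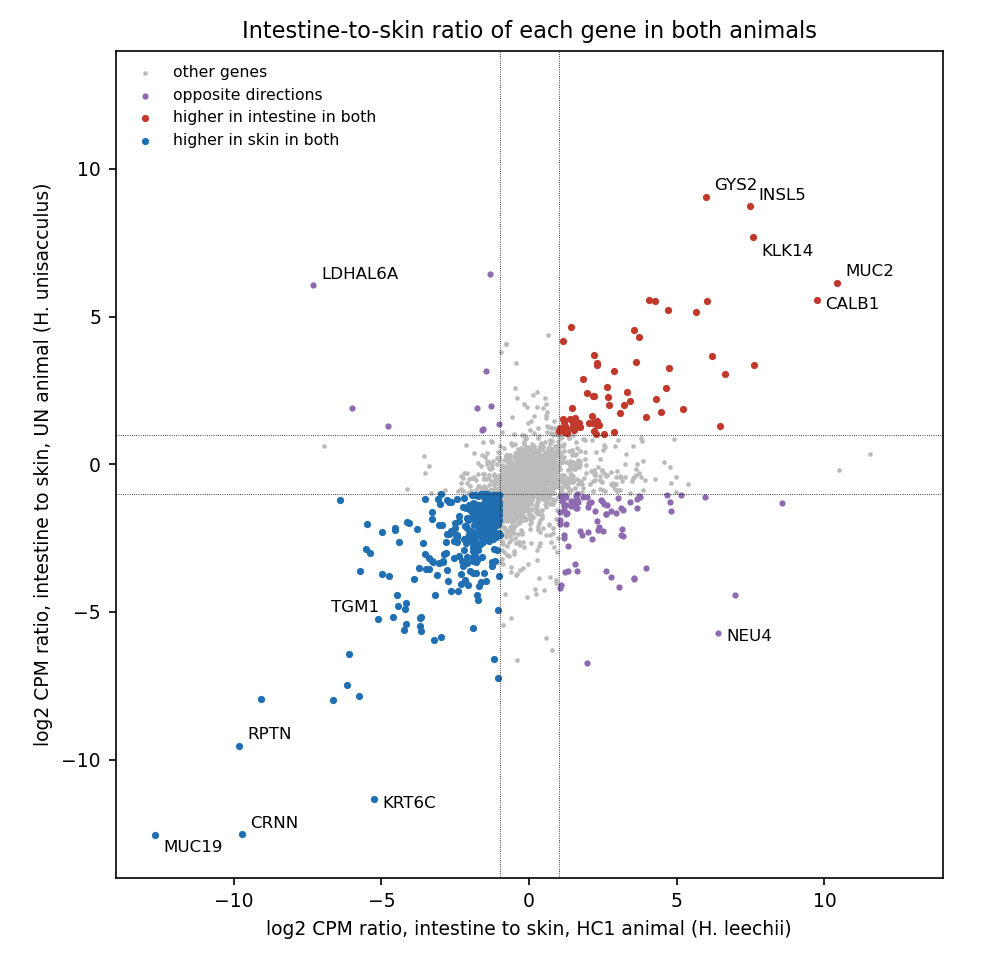
Each point is 1 of the 2287 genes with at least 10 CPM in the higher tissue of both animals. The horizontal axis is the log2 ratio of intestine to skin CPM in the HC1 animal and the vertical axis the same in the UN animal, and dotted lines mark a 2-fold difference. The 70 genes higher in both intestines lie upper right, the 327 higher in both skins lower left, and the 94 opposite genes in the other corners.

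Across all 6663 genes kept for the fit, edgeR's quasi-likelihood test of intestine against skin, with table and tissue as terms and the 5 livers sharing the estimate of spread, called 0 genes at an adjusted p under 0.05 (0.0%). The lowest adjusted p was 1, and 186 genes had an unadjusted p under 0.05 (2.79%). These terms leave out that 1 liver of each table came from the animal that gave the intestine and skin. Of counts from 1 to 19, 45.9% were odd in that UN liver and 46.0% in that HC1 liver, against 11.3% to 16.2% in the other livers. DESeq2 with the same terms called 66 genes (0.991%), 19 higher in intestine (0.285%) and 47 higher in skin (0.705%). Of these, 14 agreed as higher in both intestines and 40 as higher in both skins. With 1 intestine and 1 skin library in each table, the values below are therefore described by level and by their repetition in the second animal. The word "higher" states the measured values.

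The 15 genes most strongly higher in both intestines included a mucin, a gut hormone, carriers of calcium and fatty acids, and enzymes. MUC2, which forms the gel of intestinal mucus, was 71.01-fold higher in intestine in UN (95% exact interval 65.2 to 77.5) and 1365-fold in HC1 (1006 to 1902). INSL5, a peptide hormone of enteroendocrine cells of the large bowel, had 369.6 CPM in the UN intestine and 311 CPM in the HC1 intestine, against 0 and 1.73 CPM in the UN and HC1 skins. It was at least 425-fold higher in the UN intestine, with a floor of 3 counts for the skin, and 180.1-fold higher in the HC1 intestine. Both genes were at most 2.77 CPM in any of the 5 livers of these tables.

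CALB1, a cytoplasmic calcium-binding protein, had 354 and 1115 CPM in the UN and HC1 intestines, against 7.55 and 1.30 CPM in the UN and HC1 skins. FABP1, which carries fatty acids inside absorptive cells and hepatocytes, had 1404 and 429 CPM in intestine, against 111 and 5.83 CPM in skin, in UN and HC1. For FABP1 the 5 livers of these tables held 3.27 to 23.8 CPM, while a liver of H. yangi reached 2116 CPM. The membrane protein TSPAN8, a tetraspanin, had 1749 and 2269 CPM in the UN and HC1 intestines, against 158 and 183 CPM in the skins, 11.1-fold in UN and 12.4-fold in HC1.

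SCG2, a secretory granule protein of endocrine cells, had 68.8 and 21.7 CPM in the UN and HC1 intestines, against 1.45 and 1.30 CPM in the skins. The fold was 47.4 in UN and 16.7 in HC1. LGALS9, a galactoside-binding lectin, had 609.6 and 218 CPM in intestine, against 30.5 and 16.6 CPM in skin.

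Among enzymes, GYS2, known in mammals as the liver form of glycogen synthase, had 777 CPM in the UN intestine and 326 CPM in the HC1 intestine, against 1.45 and 5.19 CPM in the skins. In the 5 livers of the same tables it did not exceed 3.11 CPM, but it reached 353 CPM in a liver of H. quelpaertensis and 191 CPM in a liver of H. yangi. The sulfotransferase CHST6, which acts on keratan sulfate, had 80.8 and 139 CPM in the UN and HC1 intestines, against 1.74 and 2.16 CPM in the skins. HSD17B2, which oxidises active oestrogens and androgens to weaker forms, had 93.1 and 74.5 CPM in intestine, against 2.03 and 3.89 CPM in skin.

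KLK14, a kallikrein-related serine protease, was at 0 counts in both skins and at 180.3 and 124 CPM in the UN and HC1 intestines. With the floor of 3 counts it was at least 207-fold higher in the UN intestine and at least 191-fold higher in the HC1 intestine, and its livers ran from 1.10 to 297 CPM. LONP1, the protease of the mitochondrial matrix, was low in both animals, at 20.7 and 32.5 CPM in the UN and HC1 intestines, against 0.580 and 0 CPM in the skins. In the 5 livers of these tables LONP1 did not exceed 0.231 CPM, but it reached 825 CPM in an HC3 liver and 145 CPM in a liver of H. yangi. Whether this row stands for the same gene in all tables was not tested. The tetraspanin TSPAN2 (at least 27.4 CPM in intestine and at most 3.24 in skin) and the membrane protein TMEM45A (at least 101 and at most 9.87 CPM) were also among the 15. In 14 of the 15, both intestines also lay above all 5 livers. KLK14 was the exception, and the share of all genes that lay above the livers is not given here.

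DESeq2 called 8 of these 15, KLK14, INSL5, GYS2, CALB1, LONP1, SCG2, FABP1 and TSPAN8. Its log2 difference was 9.36 ± 1.68 (SE) for INSL5 (DESeq2 adjusted p = 1.52e-05) and 3.54 ± 0.63 for TSPAN8 (DESeq2 adjusted p = 1.52e-05). MUC2 did not pass, with a log2 difference of 6.74 ± 2.18 (DESeq2 adjusted p = 0.113). The 15 were chosen by their ratios in the same libraries, so these calls are no separate support.

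**Figure D2:**
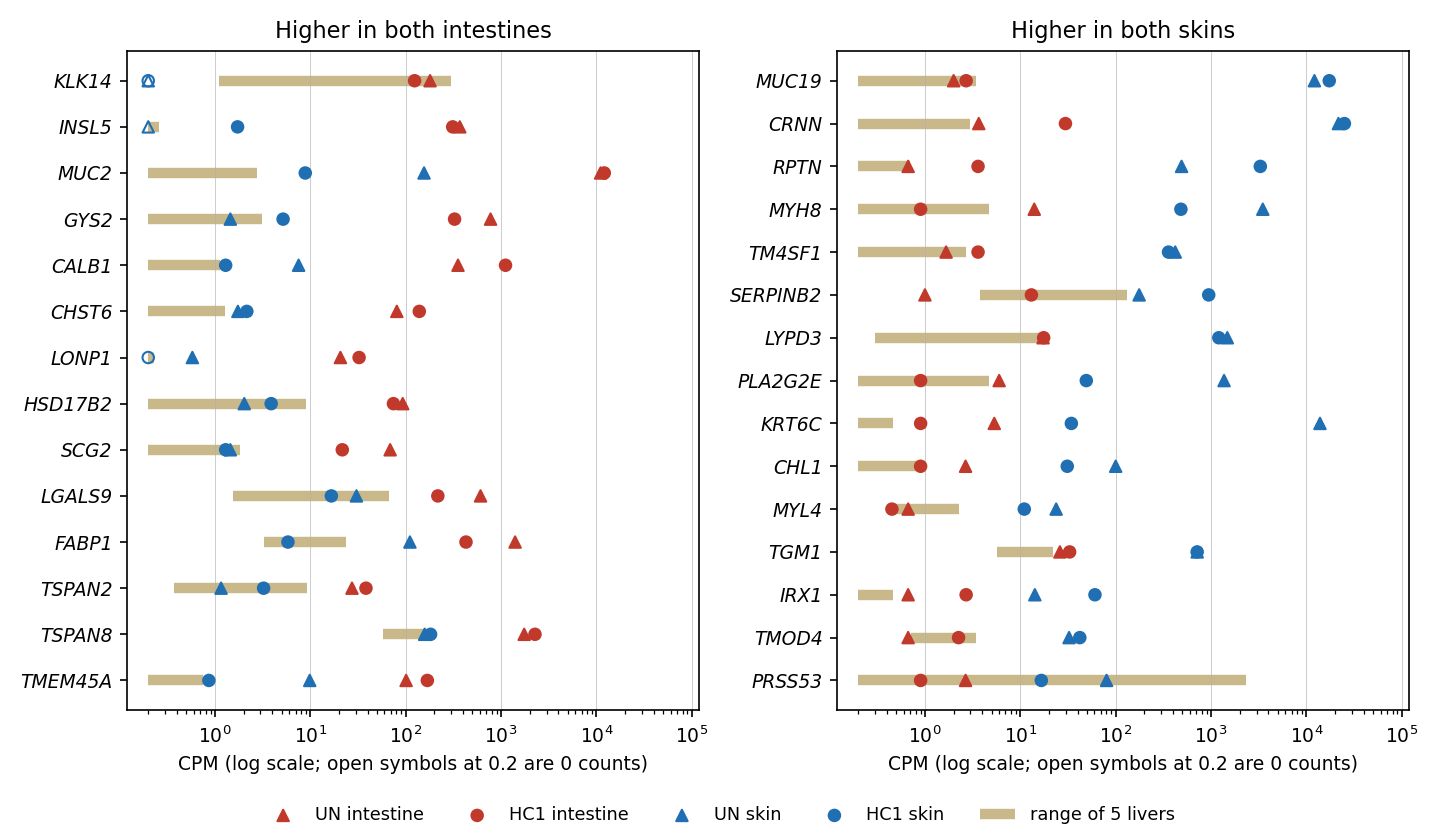
Levels in CPM, on a log axis, of 14 of the 15 genes most strongly higher in both intestines (left) and of the 15 most strongly higher in both skins (right). Red marks are intestines, blue marks skins, triangles the UN animal and circles the HC1 animal, and tan bars span the 5 livers of both tables. In every row both red marks lie on one side of both blue marks, and KLK14 and PRSS53 are the rows whose livers reach past the higher tissue.

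The 15 genes most strongly higher in both skins included genes of the cornifying epithelium, a mucin and striated muscle genes. The gel-forming mucin MUC19 was the most extreme of all, with 2.003 CPM in the UN intestine and 2.71 CPM in the HC1 intestine, each from 6 counts, against 12143 CPM in the UN skin and 17369 CPM in the HC1 skin. The skin was 6062-fold higher in UN (95% exact interval 2785 to 16519) and 6415-fold in HC1 (2947 to 17481). MUC2 and MUC19 thus went in opposite directions, in both animals. Their levels in the HC3 skin, given below, were the other way round.

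CRNN and RPTN encode cornulin and repetin, large proteins of the cornifying layer with an S100-type calcium-binding end. CRNN had 3.67 and 29.8 CPM in the UN and HC1 intestines, against 21675 and 25044 CPM in the UN and HC1 skins, where it was among the 10 most abundant genes. RPTN had 0.668 and 3.61 CPM in intestine, against 491 and 3289 CPM in skin. LYPD3, a membrane-anchored protein of the upper epidermis, had 17.4 and 17.6 CPM in the UN and HC1 intestines, against 1483 and 1208 CPM in the skins. TGM1, given above, was 27.5-fold higher in the UN skin and 21.7-fold in the HC1 skin, with almost the same level in both skins. KRT6C, a keratin of stressed and thick epidermis, agreed in direction but not in level, at 5.34 and 0.903 CPM in the UN and HC1 intestines, against 13888 CPM in the UN skin and 34.4 CPM in the HC1 skin.

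The surface protein TM4SF1 had 1.67 and 3.61 CPM in the UN and HC1 intestines, against 422 and 359 CPM in the skins. SERPINB2, the plasminogen activator inhibitor of squamous epithelium and monocytes, had 1.002 and 13.1 CPM in intestine, against 176 and 946 CPM in skin. PLA2G2E, a secreted phospholipase found in mouse hair follicles, had 6.01 and 0.903 CPM in intestine, against 1371 and 49.3 CPM in skin. These skin levels were alike in both animals for TM4SF1 and differed between them for SERPINB2 and PLA2G2E. Such comparisons of level, here and for TGM1 and KRT6C above, are between tables counted separately. What the tables contribute to them was not tested. The remaining non-muscle genes were the adhesion protein CHL1, the homeobox factor IRX1 and the protease PRSS53, whose skins lay between 14.2 and 100.1 CPM and whose intestines were at most 2.71 CPM. PRSS53 reached 2301 CPM in a liver, and it was the 1 of the 15 whose skins did not lie above all 5 livers. Here too the share over all genes is not given.

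Muscle genes made up the rest. MYH8, a myosin heavy chain of young and regenerating skeletal fibres, had 14.02 CPM in the UN intestine and 0.903 CPM in the HC1 intestine, against 3492 CPM in the UN skin and 484 CPM in the HC1 skin. The light chain MYL4 had 0.668 and 0.451 CPM in the UN and HC1 intestines, against 23.8 and 11.02 CPM in the skins. TMOD4, which caps thin filaments in skeletal muscle, had 0.668 and 2.26 CPM in intestine, against 32.5 and 42.1 CPM in skin. MYL4 and TMOD4 were low. Their UN and HC1 intestine values rested on 2 and 1 counts for MYL4, and on 2 and 5 counts for TMOD4.

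DESeq2 called 12 of these 15, chosen in the same way, as higher in skin, and the 3 it did not were CHL1, IRX1 and PRSS53. Its log2 difference of intestine to skin was -12.61 ± 1.64 (SE) for MUC19 (DESeq2 adjusted p = 2.97e-11), -9.69 ± 1.20 for RPTN (DESeq2 adjusted p = 3.41e-12) and -4.61 ± 0.82 for TGM1 (DESeq2 adjusted p = 1.52e-05). When all 23 libraries were fitted by edgeR, over genes from the 2252 symbols common to all 6 tables, 1 gene was called. It was TGM1, with a log2 difference of -4.84 (edgeR adjusted p = 0.00516). That fit holds the 4 libraries by which TGM1 was chosen, so the call is no separate support. Named genes absent from any of the tables could not be called in it.

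Beyond the 30 genes, further skin genes were picked out after their values were seen. The gel-forming mucin MUC5B had 146 and 389 CPM in the UN and HC1 intestines, against 6495 and 4998 CPM in the skins. MUC19 and MUC5B thus stood apart from MUC2 in the same way in both animals. In the HC3 skin, by contrast, MUC2 was at 5639 CPM and MUC19 at 0.784 CPM. Whether these mucin rows stand for the same genes in all tables was not tested. The epidermal gap junction protein GJB5 was higher in skin, at 15.7 and 23.01 CPM in intestine against 84.5 and 87.9 CPM in skin. The proton pump subunit ATP6V1G3, known from acid-secreting cells of the kidney, had 4.67 and 11.7 CPM in the UN and HC1 intestines, against 236 and 147 CPM in the skins.

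Genes of water and salt handling, also picked out after their values were seen, included a channel and hormone receptors. The water channel AQP1 had 84.8 and 118 CPM in the UN and HC1 intestines, against 401 and 387 CPM in the skins. The prolactin receptor PRLR, whose hormone acts on amphibian skin, had 199.99 and 371 CPM in intestine, against 1774 and 1382 CPM in skin. AVPR2, the vasopressin receptor of the kidney collecting duct, had 5.34 and 27.5 CPM in intestine, against 83.00 and 75.6 CPM in skin. In the list of skin ion transport genes, by contrast, none of 3 at the level was higher in both skins. CA2 was higher in both intestines, ATP6V0D2 was opposite, and the anion exchanger SLC4A1 had log2 ratios of -0.59 in UN and 1.38 in HC1. PRLR was called by DESeq2 (adjusted p = 0.00508) but not by edgeR. It was picked by its values in the same libraries, so this call is no separate support.

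Striated muscle genes picked out in the same way included SRL, a protein of the muscle calcium store, which was at 0 counts in both intestines and at 42.95 and 24.4 CPM in the UN and HC1 skins. With the floor of 3 counts it was at least 42.9-fold higher in the UN skin and at least 18.04-fold higher in the HC1 skin. XIRP2, an actin-binding protein of muscle, had 4.01 and 1.81 CPM in intestine, against 32.2 and 75.6 CPM in skin. CSRP3, a protein of the Z disc, had 4.01 and 24.8 CPM in intestine against 24.4 and 144 CPM in skin. For CSRP3 the HC1 intestine was slightly above the UN skin, so the tissues overlapped across animals.

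On the intestine side, enzymes and a pump that handle foreign and endogenous small molecules were among the agreeing genes, again chosen after their values were seen. Aldehyde oxidase AOX1 had 462 and 1038 CPM in the UN and HC1 intestines, against 48.8 and 39.1 CPM in the skins (DESeq2 adjusted p = 1.25e-07). That p-value comes from the libraries by which AOX1 was picked and is no separate support, and edgeR did not call AOX1. The glutathione transferase GSTP1 had 1587 and 2614 CPM in intestine, against 508 and 603 CPM in skin. The drug efflux pump ABCB1 had 291 and 1116 CPM in intestine, against 11.6 and 419 CPM in skin, and the monoamine oxidase MAOA had 804 and 259.9 CPM in intestine against 175 and 13.2 CPM in skin. For ABCB1 the UN intestine was below the HC1 skin, so the tissues were apart within each animal but overlapped across animals. Other enzymes of this kind went otherwise. NQO1, a quinone reductase, and the glutathione transferase GSTO1 were higher in both skins, with log2 ratios of -2.45 and -1.91 in UN and -2.06 and -1.28 in HC1. CYP2D6, ALDH3B2 and GSTA2 were opposite in the animals.

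Lists of genes for cell types and processes held 502 distinct symbols in 28 lists. Of these, 246 were in both tables and 74 reached 10 CPM in both. Of the 74, 10 agreed as higher in intestine (13.5%, against 3.06% of all 2287 genes) and 13 as higher in skin (17.6%, against 14.3%). The lists were chosen with earlier results of these libraries known, and the second share is near its background. No list member was called by edgeR.

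Few members of the gut lists could be compared in both animals. Of 15 goblet cell and mucus genes, 3 reached the level in both animals, and MUC2 agreed. FCGBP, a mucus protein that binds to MUC2, was at 944 and 2621 CPM in the UN and HC1 intestines, against 1076 and 577 CPM in the skins, at least 2-fold higher in intestine in HC1 only. The list's median log2 ratio, over both animals, was 1.16, against -0.45 over all 2287 genes. Of 22 brush border genes only 2 reached the level and none agreed on whole totals. CUBN, the cubilin receptor that takes up vitamin B12 and proteins, was at 15.7 and 12174 CPM in intestine, against 12.2 and 4.11 CPM in skin, past 2-fold in HC1 but not in UN. With TMM factors CUBN passed 2-fold in both, with log2 ratios of 1.01 in UN and 11.79 in HC1, and so did the goblet cell factor SPDEF, at 1.06 and 2.16. The intestinal cadherin CDH17 was likewise at 4.01 CPM in the UN intestine and 3842 CPM in the HC1 intestine, against 3.48 and 259 CPM in the skins.

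Both measurable enteroendocrine genes agreed, SCG2 and the granule protein SCG3, which had 10.3 and 39.7 CPM in the UN and HC1 intestines, against 1.16 and 5.402 CPM in the skins. This list's median log2 ratio was 3.92. Of 2 fat uptake genes at the level FABP1 agreed, while NPC1L1, the cholesterol importer, had log2 ratios of -0.65 in UN and 0.82 in HC1.

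Of 4 smooth muscle genes at the level, 1 agreed. MYH11, the smooth muscle myosin heavy chain, had 1419.9 and 1246 CPM in the UN and HC1 intestines, against 651 and 611 CPM in the skins, just over 2-fold in each animal. The actin-binding proteins TAGLN and CNN1 had log2 ratios of 0.96 and 1.10, and of 0.51 and 0.69, in UN and HC1. With TMM factors TAGLN also passed 2-fold in both. The other member, DES, went in opposite directions, at 3.16 in UN and -1.46 in HC1. The list's median log2 ratio was 0.94.

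Of 3 desmosome genes at the level 2 agreed, and of 3 cornified envelope genes all agreed, as higher in skin. Desmosomes rivet epithelial cells together, and DSP, which ties their plaque to keratin, had 1213 and 1676 CPM in the UN and HC1 intestines, against 12359 and 13923 CPM in the skins. PERP, a desmosomal membrane protein, had 141 and 454 CPM in intestine, against 1534 and 2165 CPM in skin. The other desmosome gene at the level, PKP2, had log2 ratios of -0.30 and 0.04 in UN and HC1. The cornified envelope genes were TGM1, LYPD3 and SCEL, the last at 3.34 and 190.0 CPM in the UN and HC1 intestines, against 18.6 and 1019.8 CPM in the skins. For SCEL the HC1 intestine was above the UN skin, so the tissues overlapped across animals. The median log2 ratio was -2.85 for the desmosome list and -4.61 for the cornified envelope list. With TMM factors further members of the cornified envelope list reached 10 CPM in both animals. None of those added agreed, and the list's median was then -2.00. With median-of-ratios factors it was -4.12.

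Other desmosome members were under 10 CPM in both tissues of 1 animal. DSC2 was at 243 and 3909 CPM in the UN intestine and skin but at 9.93 and 4.75 CPM in those of HC1. DSC1 was at 147 and 1461 CPM in the HC1 intestine and skin but at 4.67 and 4.06 CPM in those of UN. Of 12 desmosome genes in both tables, 7 reached 10 CPM in UN only and 2 in HC1 only. Whether these rows stand for the same genes in both tables was not tested.

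Of 14 members of the keratin list in both tables, 4 reached the level in both, and none agreed. The list does not hold KRT6C, described above, which agreed as higher in skin. KRT7, a keratin of simple epithelium, had 1929.7 CPM in the UN intestine and 264 CPM in the HC1 intestine, against 1252 CPM in the UN skin and 32222 CPM in the HC1 skin. KRT75, known from hair follicles, was at 5369 CPM in the UN skin and 0 in the HC1 skin, while KRT4, of internal squamous linings, was at 2.32 CPM in the UN skin and 2777 CPM in the HC1 skin. The list members each table held, without KRT6C, summed to 4768 and 10701 CPM in the UN and HC1 intestines. In the UN and HC1 skins they summed to 15186 and 44702 CPM, so the sum was higher in both skins. The sums cover unlike members, since 4 were in the HC1 table only and 2 in the UN table only. In the HC1 intestine KRT8 made up most of the sum, at 9747 CPM. KRT20, in the UN table only, was at 2102 CPM in the UN intestine and 0.580 CPM in the UN skin. In the HC1 skin KRT7 made up most of the sum, and in the UN skin KRT75 was the largest listed member, below KRT6C.

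**Figure D3:**
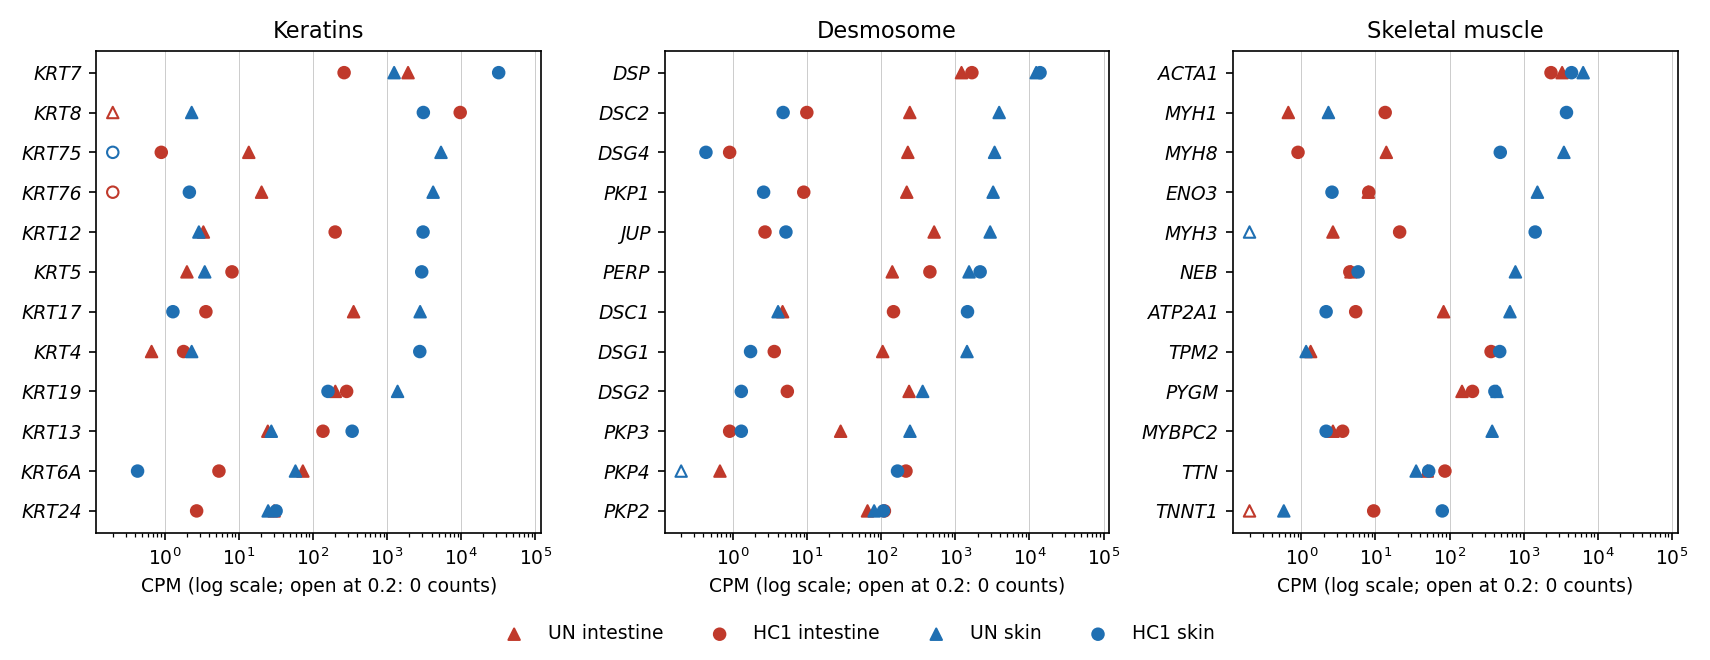
Levels in CPM, on a log axis, of the members of the keratin, desmosome and skeletal muscle lists found in both tables, up to 12 for each list, by highest level. Red marks are intestines, blue marks skins, triangles UN and circles HC1, and open marks are 0 counts. For DSP, PERP and MYH8 both blue marks lie to the right of both red marks, while KRT75, DSC2 and NEB are highest in the UN skin and KRT4, KRT5 and MYH1 in the HC1 skin.

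The summed members of the skeletal muscle list were higher in the skins, though not every member was. All list members of a table summed to 3676 CPM in the UN intestine and 3129 CPM in the HC1 intestine, against 13762 CPM in the UN skin and 11217 CPM in the HC1 skin. Of 4 at the level in both, MYH8 and the muscle glycogen phosphorylase PYGM agreed as higher in skin. The giant sarcomere protein TTN was higher in both intestines by less than 2-fold, with log2 ratios of 0.50 in UN and 0.73 in HC1, and by 1.20 and 1.01 with median-of-ratios factors, which passes 2-fold. ACTA1, skeletal actin, had 3304 and 2338 CPM in the UN and HC1 intestines, against 6353 and 4427 CPM in the skins, slightly under 2-fold. It had 1461 to 3612 CPM in the 5 livers. In both intestines ACTA1 made up most of the list's sum, and whether its row is particular to skeletal muscle was not tested. The fast myosin MYH1 (3782 CPM) and MYH3 (1430.2 CPM) were high in the HC1 skin, and the thin filament protein NEB (774 CPM) and the enolase ENO3 (1534 CPM) in the UN skin. The part of body-wall muscle in the skin samples was not tested, and in whole tissue more cells of a type and more RNA per cell cannot be told apart.

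Transport and junction genes agreed in both directions. Carbonic anhydrase CA2, of acid-base transporting cells, had 599 and 1260.4 CPM in the UN and HC1 intestines, against 293 and 218 CPM in the skins, and agreed as higher in intestine. The tight junction protein CLDN1, needed for the epidermal barrier, had 6.68 and 7.67 CPM in intestine, against 78.1 and 79.5 CPM in skin. The tight junction scaffold TJP1 agreed in the same direction, at -1.81 and -1.13 on the log2 scale in UN and HC1. CDH1, EPCAM and CGN, shared by both epithelia, did not pass 2-fold in both. Among 2 epidermal transcription factors at the level GRHL3, which directs barrier formation, agreed, with 12.7 and 29.3 CPM in intestine, against 214 and 123 CPM in skin.

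Markers of other cells were checked beside these results. Of 20 hepatocyte genes, 3 reached the level in both tables. The iron carrier TF was higher in both intestines, at 38.7 and 121 CPM in the UN and HC1 intestines against 15.4 and 24.6 CPM in the skins. SERPINC1, antithrombin, was higher in both skins, at 2.67 and 5.42 CPM in intestine against 14.8 and 19.2 CPM in skin. The 5 livers ran from 457 to 1477 CPM for TF and from 2501 to 4296 CPM for SERPINC1. The list members each table held summed to 91.1 and 3093 CPM in the UN and HC1 intestines, against 92.0 and 612 CPM in the UN and HC1 skins. These sums cover unlike members, since 5 were in the HC1 table only and 2 in the UN table only. In the HC1 intestine most of the sum was HPX, the haem carrier, at 2178 CPM. Of 24 leukocyte genes, the actin-bundling LCP1 agreed as higher in skin, at 28.7 and 27.98 CPM in intestine against 92.00 and 89.5 CPM in skin, and 5 reached the level. Leukocyte genes held by each table summed to 233 and 5190.4 CPM in the UN and HC1 intestines, against 968 and 1113 CPM in the skins. Here 4 members were in the HC1 table only and 3 in the UN table only. Of these sums, the immunoglobulin heavy chain IGHM held 33.4 and 2243 CPM in the UN and HC1 intestines, and 176 and 262 CPM in the skins. The part of hepatocytes and leukocytes in the results was not tested.

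In the remaining lists, GCH1, which makes the pteridine precursor of amphibian pigments, agreed as higher in intestine, at 44.7 and 92.96 CPM in the UN and HC1 intestines against 20.9 and 12.5 CPM in the skins. No member agreed of 2 nutrient carriers, 2 hemidesmosome genes, 2 erythroid genes, 1 chitinase, 1 pancreatic acinar gene and 1 cell division gene at the level. The pancreatic gene, the lipase PNLIP, passed 2-fold as higher in intestine with TMM factors, at 1.46 in UN and 2.38 in HC1. None reached the level in both animals among brush border digestive enzymes, dermal matrix, endothelium, and nerve and glia genes.

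Of 7 nuclear-encoded respiratory chain genes at the level none agreed, and their median log2 ratio was 0.31. Of 8 ribosomal protein genes RPL3 agreed as higher in skin, with log2 ratios of -1.34 in UN and -1.30 in HC1, and the median was -0.15. With TMM factors RPL3 stood at -0.69 in UN and -1.04 in HC1 and no longer agreed, nor did TJP1 and PYGM. With TMM factors 20 of the 23 agreeing list members still agreed, and with median-of-ratios factors 19 of 23, and in all 23 the sign was unchanged under both.

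**Figure D4:**
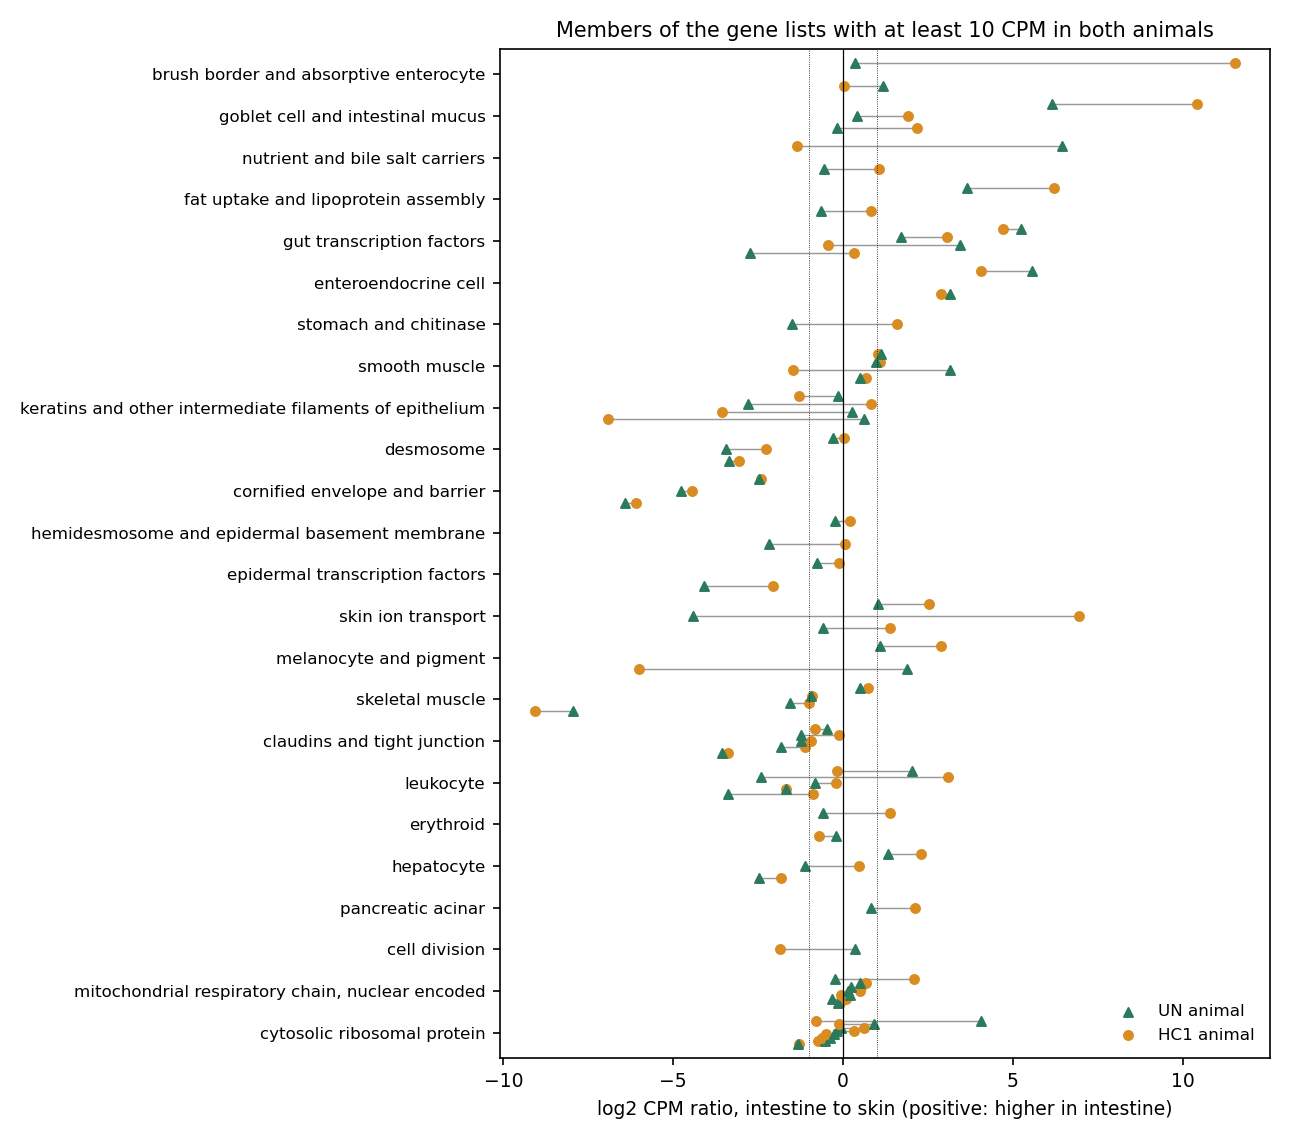
Log2 ratio of intestine to skin CPM of every list member with at least 10 CPM in the higher tissue of both animals, grouped by list. Triangles are the UN animal and circles the HC1 animal, grey lines join a gene's values, and dotted lines mark 2-fold. Both marks of all 3 cornified envelope genes lie left of the lower dotted line, both marks of both enteroendocrine genes lie right of the upper one, and the 7 respiratory chain genes stay between the dotted lines apart from UQCRC1 in HC1.

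Among opposite genes, the 4 in each sense whose smaller ratio was largest are given. Ranked by the difference between the animals, SLC13A2, RICTOR and LPO would be ahead of some of these. The sialidase NEU4 was at 0 and 36.6 CPM in the UN and HC1 intestines, against 52.5 and 0.432 CPM in the UN and HC1 skins. The proton pump subunit ATP6V0D2 was at 0 and 80.8 CPM in intestine, against 21.5 and 0 CPM in skin. The ceramide synthase CERS4 and the transcriptional cofactor VGLL1 had the same pattern, with log2 ratios of -3.84 and -3.87 in UN and 3.56 and 3.55 in HC1. This was the sense of 84 of the 94 opposite genes.

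The other 10 were higher in intestine in UN and in skin in HC1. The lactate dehydrogenase-like LDHAL6A was at 39.1 and 3.61 CPM in the UN and HC1 intestines, against 0.580 and 572 CPM in the skins. GPNMB, a membrane glycoprotein of pigment cells and macrophages, was at 152 and 1.35 CPM in intestine, against 40.6 and 86.6 CPM in skin. The muscle intermediate filament DES was at 20.7 and 227 CPM in intestine, against 2.32 and 627 CPM in skin, and the esterase AADAC had log2 ratios of 1.91 in UN and -1.78 in HC1. The difference of the ratio between the animals was tested for all 6663 genes in edgeR, with the spread taken from the livers. It called 0 genes (0.0%), 66 had an unadjusted p under 0.05, and DESeq2 called 1, FUNDC1 (DESeq2 adjusted p = 0.00287), a mitochondrial receptor that was at or under 1.16 CPM in all 4 intestine and skin libraries.

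The same 30 symbols were looked up in 4 libraries whose values did not enter the rule that chose them, the intestines of H. leechii lineage LE, H. quelpaertensis (QU) and H. yangi (YA), and the skin of H. leechii lineage HC3. Intestine genes were above every liver of their own table for 11 of 12 symbols present in LE, 13 of 13 in QU and 8 of 9 in YA, the exceptions being LGALS9 in LE and LONP1 in YA. Some that passed had low levels or small margins. HSD17B2 was at 1.02 CPM in the LE intestine, against at most 0.221 CPM in the LE livers. FABP1 was at 2156 CPM in the YA intestine, against 2116 CPM in a YA liver. Skin genes were above every liver for 8 of 9 present in HC3, the exception being MUC19. The shares over all symbols of these tables are not given, so these counts describe the named genes only. MUC2 was at 14023, 9028 and 5197 CPM in the LE, QU and YA intestines. KLK14 was at 132, 1421 and 113 CPM there.

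Against the HC3 skin, some genes repeated and others did not. Of 9 intestine genes with a value in both, 6 were higher in every other intestine that held them than in the HC3 skin. The share over all symbols is not given for this comparison either. The 6 were KLK14 and GYS2 (3 intestines), FABP1, TSPAN2 and TSPAN8 (2 intestines) and SCG2 (QU only). GYS2 was uneven, at 7.11, 883 and 553 CPM in the LE, QU and YA intestines. MUC2 overlapped, because the HC3 skin held 5639 CPM, and so did LGALS9, at 0 in LE, 1665 CPM in QU and 16.8 CPM in the HC3 skin. LONP1 went the other way, at 28.5, 91.6 and 30.7 CPM in the intestines against 436 CPM in the HC3 skin. These values come from tables counted separately, and what the tables contribute to the differences was not tested.

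For skin genes, CRNN, RPTN, KRT6C and MYH8 were at 15322, 11627, 15286 and 3678 CPM in the HC3 skin, and at most 64.4 CPM in the 3 HC3 livers. TGM1 was at 4.07, 4.70 and 1.47 CPM in the LE, QU and YA intestines, against 1036 CPM in the HC3 skin. TM4SF1 was at 1.02 and 2.35 CPM in the LE and QU intestines, against 259.7 CPM in the HC3 skin. MUC19, the most extreme gene of the pair of animals, was at 0.784 CPM in the HC3 skin, and LYPD3 was at 31.5, 91.6 and 22.4 CPM in the intestines against 8.62 CPM. CHL1 was at 185 CPM in the YA intestine against 140.2 CPM in the HC3 skin. CRNN, RPTN, KRT6C and MYH8 had no intestine value in these tables.

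**Figure D5:**
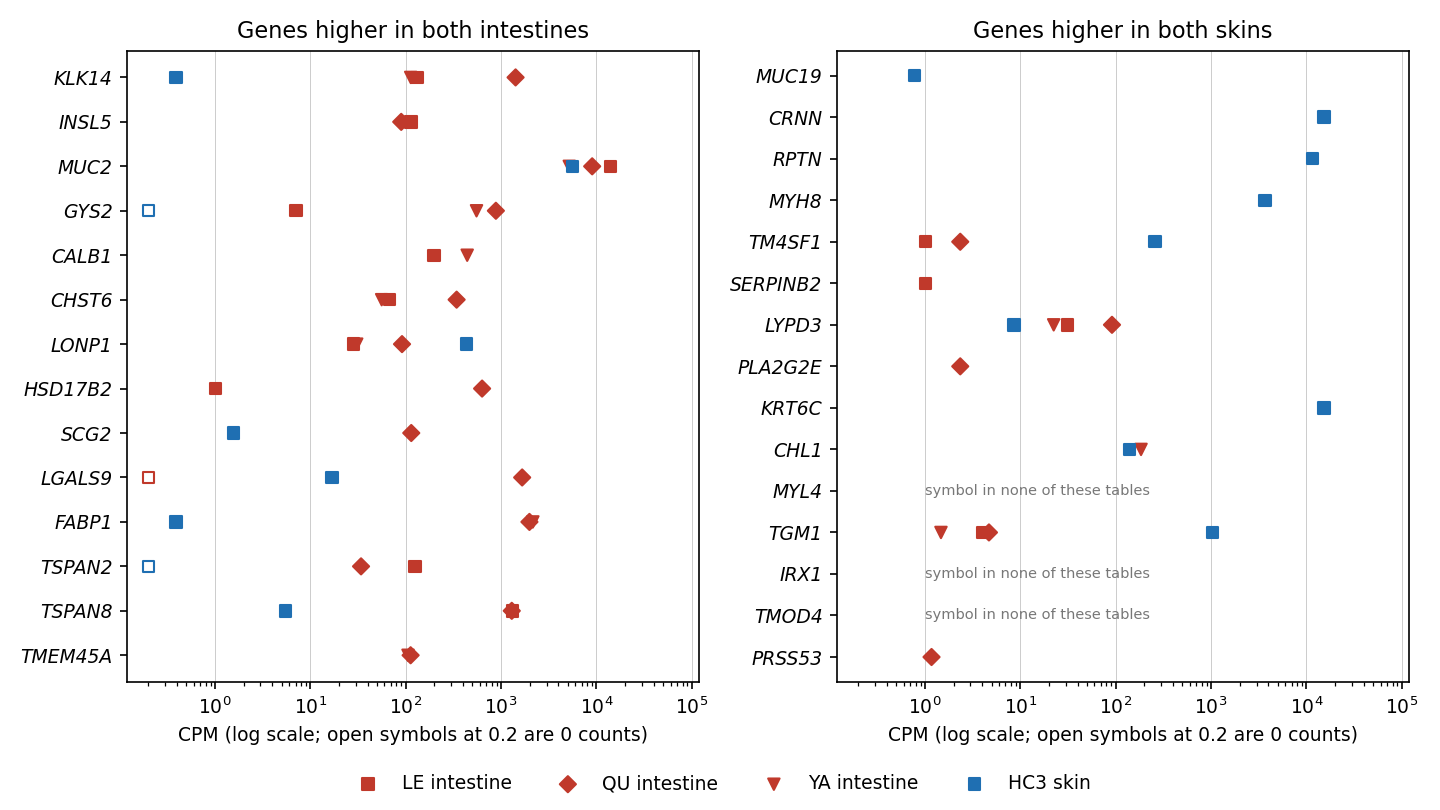
Levels in CPM, on a log axis, of the same symbols, apart from 1 of the intestine genes, in libraries whose values did not enter the rule that chose them, the LE, QU and YA intestines (red) and the HC3 skin (blue). A symbol absent from a table has no mark. TGM1 and TM4SF1 are higher in the HC3 skin than in the intestines shown, while MUC2 overlaps and LONP1 and LYPD3 lie the other way round.

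The limit of 2-fold was narrow for some genes. PPARD, a lipid-sensing receptor, was the weakest gene counted as higher in intestine, with log2 ratios of 1.01 and 2.26 in UN and HC1, and CASP6, at 0.99 and 1.49, was the nearest outside. On the skin side CTDP1 was just inside, at 27.98 CPM in the HC1 intestine against 55.96 CPM in the HC1 skin, and USP6NL just outside, at 30.7 CPM in the HC1 intestine against 61.4 CPM in the HC1 skin. At 8-fold or more in both animals, 17 genes were higher in intestine and 37 in skin.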

How the data were processed

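The authors deposited raw counts, in a table for each lineage whose columns name an animal and its tissue, per the file headers. BWA and SAMtools are named in the submitters' processing notes, and the genome build, annotation and counting rule are not given in the sources used here. Unnamed rows held up to 0.169% of a library's counts and were not used. Samples were assigned by their titles, which match the animal and tissue in the column names. The description field of most samples names the table of another lineage, and the extraction protocol speaks of embryos where the samples are labelled adult tissue. CPM are counts per 1000000 on whole-table totals. A count of 0 was set to a floor of 3 counts when a ratio was formed, and intervals are exact (Clopper-Pearson, 95%) from the 2 counts and totals.

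Genes in both tables were fitted in R 4.3.3 with edgeR 4.0.16 (glmQLFit robust, glmQLFTest, filterByExpr with a minimum count of 10, no further scaling) on the 9 libraries of the HC1 and UN tables, with table and tissue as terms. Benjamini-Hochberg adjustment ran over all 6663 genes, with calls at an adjusted p under 0.05. Scripts were tested on simulated data. Alternatives were DESeq2 1.42.0, TMM and median-of-ratios factors, other filters, the animal as a block, each library left out, other fold and CPM limits, and, chosen after seeing the data, totals without the 10 most abundant genes and the levels in other tables. The pairing of tissues by animal comes from the titles. Named were the 15 agreeing genes each way with the largest ratio in the weaker animal, 4 opposite genes each way, and up to 6 members of a list by CPM, some of which are counted but not described. Some items are not reported here. The members, lists and naming rules were chosen with earlier results of these data known.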

Additional observations from a re-analysis of the deposited data

Results flagged for a closer look

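For 11 of the named genes and list members the animals went in opposite directions by at least 2-fold. The 4 opposite genes named in each sense were chosen for this, so the naming rule fixed most of the count. Over all 2287 genes with at least 10 CPM in both animals, 94 were opposite (4.11%). Neither edgeR nor DESeq2, with the spread from the livers, called the difference for any of the 11. The values below are the log2 ratio of intestine to skin in UN minus that in HC1. Among genes higher in skin in UN and in intestine in HC1, it was -12.12 for NEU4, -11.38 for ATP6V0D2, -7.42 for VGLL1 and -7.41 for CERS4. The immunoglobulin heavy chain IGHM differed by -5.50, at 33.4 and 2243 CPM in the UN and HC1 intestines, against 176 and 262 CPM in the skins. The chitin-cleaving enzyme CHIT1 differed by -3.08, at 398 CPM in the UN intestine and 109647 CPM in the HC1 intestine, where it was the most abundant gene, against 1122 and 36639 CPM in the skins.

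In the other sense the difference was 13.38 for LDHAL6A, 7.90 for GPNMB, 4.62 for DES and 3.69 for AADAC. The dicarboxylate carrier SLC13A2 differed by 7.78, at 353 and 9.48 CPM in the UN and HC1 intestines, against 4.06 and 23.98 CPM in the skins.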

How the results depend on the processing

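Counts of agreeing genes moved with the limits and the scaling. Higher in intestine, higher in skin and opposite were 70, 327 and 94 genes as reported, 30, 86 and 16 at 4-fold, 188, 510 and 522 at 1 CPM, 41, 157 and 20 at 50 CPM, 124, 169 and 52 with TMM factors, and 132, 158 and 52 with median-of-ratios factors. Without the 10 most abundant genes in the totals, 134 were higher in intestine and 255 in skin. Of the genes agreeing with TMM factors, 238 of 293 were among those reported. The median log2 ratios in UN and HC1 were -0.73 and -0.24 as reported, -0.0434 and 0.0268 with TMM factors, 0.0222 and 0.0588 with median-of-ratios factors, -0.69 and -0.21 on totals of the joined symbols, and -0.10 and -0.15 without the 10 most abundant genes. List members that agreed numbered 23, and 13 at 4-fold and 35 at 1 CPM. Of the 30 named genes, 30 agreed at 4-fold and 1 CPM, 28 with TMM factors and 29 with median-of-ratios factors, where MYL4 (and PRSS53 with TMM) was under 10 CPM, and 20 at 50 CPM. The floor of 1 count changed no count of agreeing genes.

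edgeR called 0 genes for intestine against skin, DESeq2 called 66, and edgeR called 1 with all 23 libraries. For the difference between the animals edgeR called 0 and DESeq2 1. The cause was not tested. Leaving out each of the 9 libraries in turn gave 0 calls for intestine against skin, and leaving out each liver gave 0 for the difference between the animals. With the animal as a block 0 genes were called on 9 libraries, with 113 at an unadjusted p under 0.05, and 0 on the 4 intestine and skin libraries, with 342. Among the named genes, 1 value changed sign: PRSS53 had a log2 difference of 7.03 without the UN skin, and leaving out each library in turn gave -16.36 to 7.03. Depth limits ratios of genes with few counts in the lower tissue, and having 1 intestine and 1 skin library in each table limits all of them.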

Other observations

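Further genes were picked out after their values were seen, as a description. Among receptors and ligands, directions differed. The Notch ligand JAG1 was higher in both skins, with 10.02 and 16.7 CPM in the UN and HC1 intestines, against 119 and 116 CPM in the skins, and the receptor NOTCH3 had 21.7 and 85.3 CPM in intestine against 161 and 388 CPM in skin. The related JAG2 did not agree, NOTCH2 was opposite, and IL4R, the interleukin 4 receptor, was higher in both intestines, with log2 ratios of 1.09 in UN and 1.21 in HC1. IL22RA1, the receptor by which epithelia sense interleukin 22, had 50.1 and 51.9 CPM in intestine, against 445 and 222 CPM in skin. Glutamine synthetase GLUL had 40.1 and 194 CPM in intestine, against 538 and 1664 CPM in skin (DESeq2 adjusted p = 0.00351). The p-value for GLUL comes from the libraries by which it was picked and is no separate support, and edgeR did not call GLUL.

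CA6, a secreted carbonic anhydrase, had 2.003 and 9.93 CPM in the UN and HC1 intestines, against 29.9 and 148 CPM in the skins, while the 5 livers held 2290.3 to 4167 CPM. On the intestine side, HSD11B1, which reactivates glucocorticoids, had 642 and 517 CPM in intestine, against 257 and 175 CPM in skin, and the glucocorticoid receptor NR3C1 was higher in both skins, at 119 and 131 CPM in intestine, against 417 and 309 CPM in skin.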
